A study of Mus musculus with 24 samples.

Results

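Expression of 10 mast cell genes was examined in bone substitute constructs that had been under the skin of mice for 2 weeks. The genes are a list of mast cell markers, drawn up with earlier results of these data known, although the rule itself names them and uses no measured value: Mcpt4, Cma1, Tpsb2, Tpsab1, Cpa3, Kit, Ms4a2, Hdc, Mrgprb1 and Mrgprb2, which are 10 of the 51138 genes in the count table. Mast cells are long-lived tissue cells of haematopoietic origin that mature under signals through the receptor KIT and store proteases, histamine and heparin in granules. They release these when IgE bound to its high-affinity receptor is cross-linked, or, in connective tissue mast cells, when certain cationic peptides and drugs bind the receptor encoded by Mrgprb2. In skin and around implanted materials they lie close to vessels and nerves.

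Each construct consisted of biphasic calcium phosphate (BCP) granules, a porous ceramic used as a bone substitute, and there were 6 groups of 4 samples, each from a separate animal. The BCP group had granules alone and BCP+MSC had granules seeded with mesenchymal stromal cells (MSC) from C57BL/6J bone marrow. In BCP+MSC+RvE1 the seeded cells had been primed with 10 nM resolvin E1, a lipid mediator that promotes the resolution of inflammation, and in BCP+MSC+Treg they had been cultured with activated regulatory T cells (Treg) at a ratio of 1:1. The remaining groups carried BCP+MSC constructs in mice given diphtheria toxin at 50 µg/kg to deplete Treg, the last dose on day 10: (dep)BCP+MSC received toxin alone, while (dep)BCP+MSC+RvE1inj also received 1 µM resolvin E1 injected at the site every day. All hosts were male and female Foxp3 DTR/eGFP mice aged 8 to 9 weeks, in which the Foxp3 promoter drives the toxin receptor, and each mouse carried 2 constructs of the same group. The study's methods name no toxin-treated hosts without the receptor and no vehicle group, so toxin, loss of Treg and the separate treatment schedule cannot be told apart. Both toxin groups carried constructs that were neither primed nor cultured with Treg. Pooled comparisons with all MSC groups without toxin therefore mix toxin treatment with the absence of priming or coculture.

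RNA was measured in bulk over the whole construct, seeded and host cells together, by polyadenylated RNA sequencing, and reads were counted per gene. Total counts per sample ran from 8482701 to 144417743, and levels are given as CPM, counts scaled to a common library size by the trimmed mean of M values (TMM). Of all genes, 30564 had at least 10 counts over the 24 samples and were tested. Foxp3 itself ranged from 0.632 to 1.15 CPM in BCP+MSC, from 0.377 to 1.69 CPM in (dep)BCP+MSC and from 0.285 to 1.05 CPM in (dep)BCP+MSC+RvE1inj, and both toxin groups against the 3 MSC groups without toxin gave a log2 fold change of 0.06 ± 0.33 (SE, edgeR adjusted p = 0.962), so this gene does not mark the toxin groups at the time of collection. Samples 1 and 2 of (dep)BCP+MSC stood apart. Sample 1 was the shallowest library and had the highest summed level of 14 skin and hair genes, 518 CPM, and in samples 1 and 2 the alarmin gene Il33 was at 6.48 and 7.54 CPM against 27.9 to 208 CPM in the other samples. Where a call named here was lost without these 2 samples, the value without them is given.

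The 10 genes lie on 7 chromosomes of the mouse genome build GRCm38, and none overlaps an exon of another gene in the annotation used here. The chymase genes Mcpt4 (chr14:56059744-56062310) and Cma1 (chr14:55941453-55944661) lie in one protease cluster, the tryptase genes Tpsb2 (chr17:25366550-25368094) and Tpsab1 (chr17:25343245-25345562) in another, and Mrgprb1 and Mrgprb2 in a receptor cluster on chromosome 7. The longest transcripts of these pairs were 67.7%, 69.6% and 71.6% identical over their aligned bases. Sequences of 50 bases shared with another gene made up 5.48% of Mcpt4, shared with Cma2 and Mcpt9, 5.38% of Cma1, 2.1% of Ms4a2 and 0.14% of Hdc, and 0% of the other 6 genes, so a small share of reads from the first 3 could be assigned elsewhere or to them.

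Promoters are shown for 4 members, since factors of the GATA family, GATA2 among them, are known regulators of mast cell genes. The sequences are the 250 bases before the RefSeq start site (GRCm38.p6), 5′ to 3′ on the gene's strand, with each match to GATA preceded by A or T and followed by A or G, on either strand, in capitals.
Mcpt4, chr14:56062311-56062560, minus strand: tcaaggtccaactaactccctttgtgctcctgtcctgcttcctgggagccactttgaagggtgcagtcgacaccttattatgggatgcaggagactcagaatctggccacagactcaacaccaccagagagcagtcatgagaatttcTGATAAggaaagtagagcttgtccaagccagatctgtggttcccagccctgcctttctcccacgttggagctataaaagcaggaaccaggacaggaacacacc
Cma1, chr14:55944676-55944925, minus strand: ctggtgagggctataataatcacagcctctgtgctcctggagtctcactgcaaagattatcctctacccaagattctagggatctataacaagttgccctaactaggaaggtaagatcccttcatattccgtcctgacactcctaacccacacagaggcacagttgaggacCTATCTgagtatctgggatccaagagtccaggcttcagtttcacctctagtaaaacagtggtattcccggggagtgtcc
Cpa3, chr3:20242182-20242431, minus strand: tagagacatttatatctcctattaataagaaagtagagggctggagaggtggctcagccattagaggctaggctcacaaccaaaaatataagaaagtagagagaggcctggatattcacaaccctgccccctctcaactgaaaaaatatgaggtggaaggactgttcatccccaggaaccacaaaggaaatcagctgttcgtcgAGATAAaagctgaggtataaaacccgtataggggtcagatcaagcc
Ms4a2, chr19:11623720-11623969, minus strand: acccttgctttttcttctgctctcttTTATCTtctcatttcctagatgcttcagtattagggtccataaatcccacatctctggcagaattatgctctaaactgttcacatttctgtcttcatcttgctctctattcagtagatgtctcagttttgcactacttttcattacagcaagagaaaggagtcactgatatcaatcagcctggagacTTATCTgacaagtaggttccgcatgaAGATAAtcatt
Such a match was present in 7 of the 8 members whose promoters could be looked up, namely these 4, Hdc, Mrgprb1 and Mrgprb2, and Kit had none. Of all 32851 promoters of the same length, 26.5% held at least 1 match and 1.35% held 3 or more, as that of Ms4a2 did. The letters CATGTG, a form bound by the mast cell factor MITF, were found on either strand in 0 of the 8 and in 12.3% of all promoters. A match is a description of the letters only.

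All 10 genes had at least 1 read in every sample, and levels differed widely between genes. On the scale of CPM per kilobase of exon, averaged over 24 samples, Tpsb2 (31.8 ± 17.8, SD), Mcpt4 (31.5 ± 17.3) and Cma1 (29.6 ± 15.3) were highest. These 3 proteases did not differ beyond their spread: Tpsb2 was above Mcpt4 in 9 of 24 samples and Mcpt4 above Cma1 in 14. Cma1 was above Cpa3, the mast cell carboxypeptidase, in 23 of 24 samples, Cpa3 (14.5 ± 6.93) was above Hdc, the histamine-forming histidine decarboxylase, in 17, and Hdc (8.57 ± 3.84) was above Kit in 23. Kit (2.04 ± 1.78) was followed by Tpsab1 (0.953 ± 0.766), Mrgprb1 (0.572 ± 0.298), Mrgprb2 (0.487 ± 0.295) and Ms4a2 (0.314 ± 0.196), the beta chain of the IgE receptor. The mucosal mast cell proteases Mcpt1 and Mcpt2 did not exceed 1.32 and 0.567 CPM in any sample. Mcpt4, Cma1 and Tpsb2 are the proteases known from connective tissue mast cells.

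**Figure D1:**
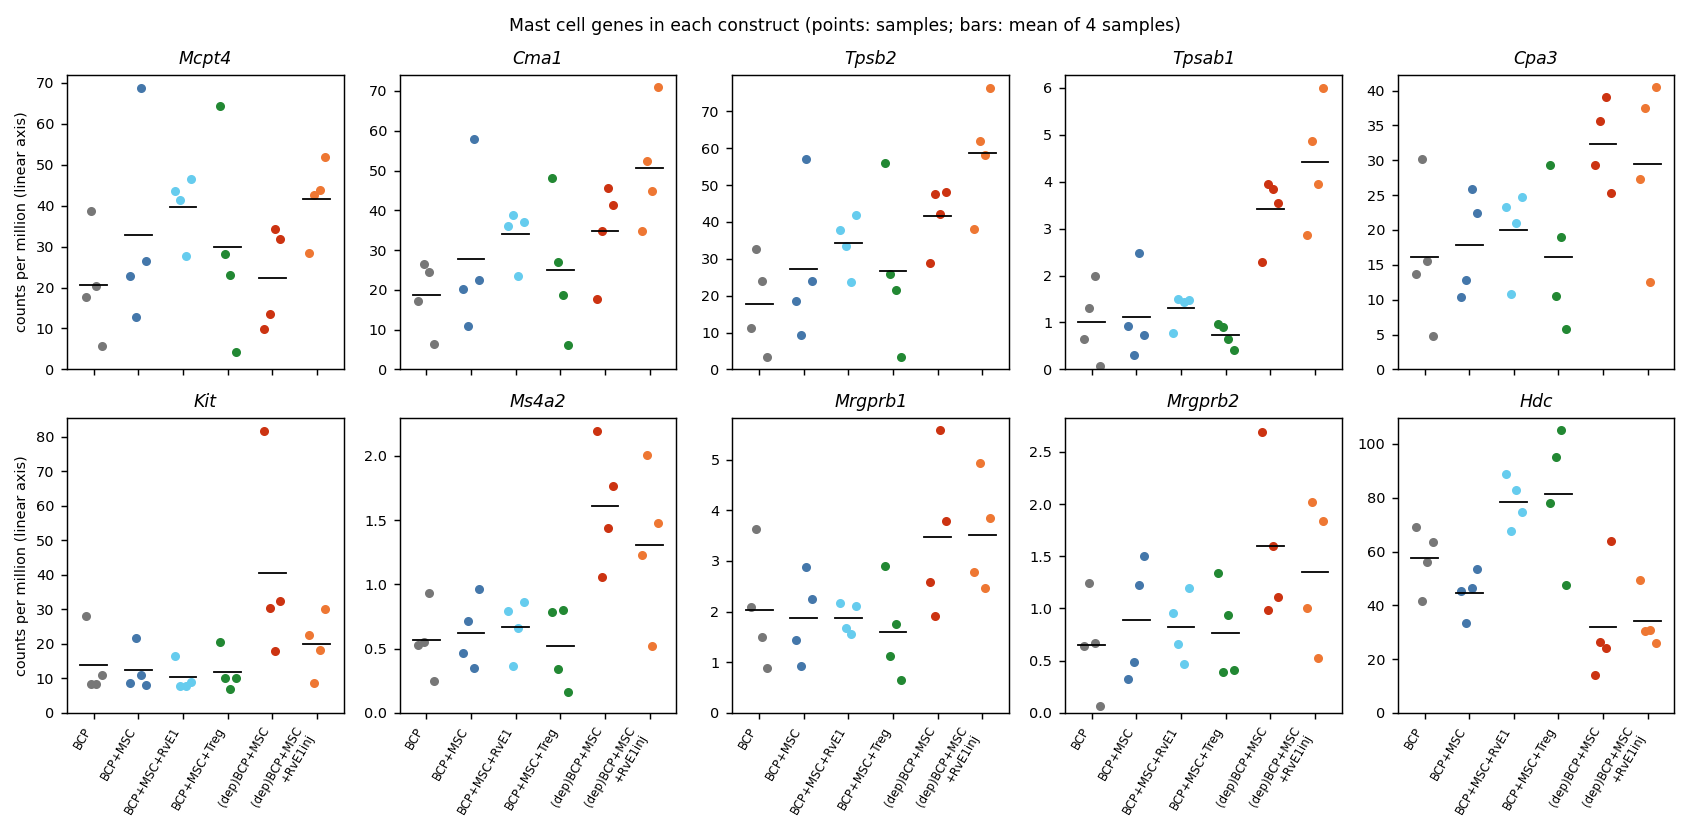
Level of each mast cell gene in CPM (vertical axes, linear, each with its own scale) in the 4 samples of each of the 6 groups. Points are samples and bars are group means. Tpsab1 ran from 2.29 to 5.98 in the 8 toxin samples and from 0.063 to 2.48 in the other 16, and the mean of Hdc was highest in BCP+MSC+Treg (81.5) and BCP+MSC+RvE1 (78.6).

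In the mice without toxin, levels of Mcpt4 varied more between samples of a group than between groups. Mcpt4, a chymase, was at 17.7, 38.6, 20.4 and 5.67 CPM in BCP, at 22.7, 12.9, 68.8 and 26.5 CPM in BCP+MSC, at 43.6, 41.3, 27.6 and 46.5 CPM in BCP+MSC+RvE1 and at 64.2, 28.1, 23.0 and 4.19 CPM in BCP+MSC+Treg. The groups overlapped, and the same samples were extreme in several genes: sample 4 of BCP and sample 4 of BCP+MSC+Treg were lowest for Mcpt4, Cma1, Tpsb2 and Cpa3, with 3.27 and 3.37 CPM of Tpsb2, whereas sample 3 of BCP+MSC was highest of these 16 for the first 3. These lowest 2 samples had 14111255 and 10567666 counts. They were also lowest of these 16 in the summed level of 8 adipocyte genes, 111 and 646 CPM against 1040 to 14670 CPM. Their 14 skeletal muscle genes summed to 5139 and 4635 CPM, where sample 2 of BCP+MSC was lower (357 CPM) and the highest sample was at 43660 CPM. The part of such differences in tissue content in the mast cell values was not tested. In bulk RNA, fewer mast cells and less RNA per cell cannot be told apart.

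In none of the 6 comparisons between groups without toxin was a member called, whether by the full rule (edgeR quasi-likelihood test, adjusted p under 0.05 after Benjamini-Hochberg over all genes tested, and more than 1 unit of log2 fold change up or down) or by the same fold at an unadjusted p under 0.05. The first rule called 0% of all genes in each of these comparisons. With BCP as the reference, the second called 8.54% in BCP+MSC+RvE1, 5.85% in BCP+MSC+Treg and 4.32% in BCP+MSC. It called 2.5% for BCP+MSC+RvE1 against BCP+MSC, 2.56% for BCP+MSC+Treg against BCP+MSC and 2.22% for BCP+MSC+Treg against BCP+MSC+RvE1. Among the members the smallest unadjusted p-values were those of Hdc. It was at 45.5, 33.4, 46.3 and 53.3 CPM in BCP+MSC and at 88.7, 67.6, 83.1 and 74.9 CPM in BCP+MSC+RvE1. Every primed sample was above every BCP+MSC sample, and the exact permutation test gave its smallest possible two-sided p, 0.0286 (n = 4 and 4, 0.257 adjusted over 90 tests of members). In BCP+MSC+RvE1 against BCP+MSC, 1 of 10 members and 1.71% of all genes did not overlap. The edgeR log2 fold change was 0.82 ± 0.32 (SE) with an adjusted p = 0.924, so the difference did not pass. In BCP+MSC+Treg, Hdc was at 78.1, 95.2, 105 and 47.7 CPM, with a log2 fold change of 0.87 ± 0.32 against BCP+MSC and adjusted p = 1 (edgeR). Neutrophils also transcribe Hdc. The 10 neutrophil markers summed to 269 to 402 CPM in BCP+MSC, 442 to 643 CPM in BCP+MSC+RvE1 and 312 to 1114 CPM in BCP+MSC+Treg. Against BCP+MSC their median log2 fold changes were 0.69 and 0.82, with 9 of the 10 positive in each group. The part of neutrophil RNA in these Hdc values was not tested.

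Among the receptors, the genes of the stem cell factor receptor and of the IgE receptor beta chain rose over the pooled toxin groups. Ms4a2, the beta chain of the high-affinity IgE receptor, was at 2.19, 1.06, 1.43 and 1.76 CPM in (dep)BCP+MSC and at 1.23, 2.01, 0.522 and 1.48 CPM in (dep)BCP+MSC+RvE1inj, against 0.164 to 0.965 CPM, median 0.690, in the 12 MSC samples without toxin. All toxin samples except sample 3 of (dep)BCP+MSC+RvE1inj lay above those 12. The log2 fold change was 1.24 ± 0.32 (SE, edgeR adjusted p = 0.012) over both toxin groups against the 3 MSC groups without toxin, and 1.35 ± 0.51 with adjusted p = 0.138 in (dep)BCP+MSC against BCP+MSC, where all 4 samples were above the other 4 (exact permutation p = 0.0286, 0.257 adjusted). Of all genes 9.15% did not overlap in the latter comparison. Its counts were low, from 2 to 149 per sample.

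Kit, the stem cell factor receptor that mast cells need to survive, was at 81.8, 30.3, 18.1 and 32.4 CPM in (dep)BCP+MSC, at 22.6, 8.63, 18.2 and 30.0 CPM in (dep)BCP+MSC+RvE1inj and between 7.03 and 21.6 CPM, median 9.45, in the 12 MSC samples without toxin. The groups overlapped, and sample 1 of (dep)BCP+MSC was far above all others. The log2 fold change over both toxin groups was 1.30 ± 0.31 (SE, edgeR adjusted p = 0.00832). Without samples 1 and 2 of (dep)BCP+MSC it was 0.98 with adjusted p = 0.0783, and with the mean level of the skin and hair genes as a covariate it was 0.55 with adjusted p = 0.0473, so the call on Kit was lost in both cases, in the second because the value was under a log2 fold change of 1. Leaving out sample 1 alone gave 0.98 with adjusted p = 0.0338, which also ended the call. Kit also marks melanocytes, whose 6 marker genes summed to 7.36 to 38.5 CPM in the toxin samples and 4.60 to 18.6 CPM in the 12 others. Of these 6, 0 were called, the unadjusted rule gave 1 higher and 1 lower, and the median log2 fold change was 0.85. Sox10, a transcription factor of melanocytes and glia, was at 3.92 to 30.7 CPM against 1.37 to 15.6 CPM (1.61 ± 0.54, edgeR adjusted p = 0.0541), and the melanocyte enzyme gene Tyr did not exceed 0.0822 CPM in either set. Dct, another melanocyte enzyme gene, was at 0 to 0.222 CPM in the toxin samples and 0 to 0.884 CPM in the 12 others. The 14 skin and hair genes summed to 9.22 to 518 CPM against 5.01 to 69.8 CPM. Of these 14, 13 had a positive log2 fold change, with a median of 1.76, and 2 were called higher, beside 7.86% of all genes called. By the unadjusted rule 5 were higher and 1 lower. The part of melanocyte and skin RNA in the Kit value was not tested beyond this covariate.

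Mrgprb1 and Mrgprb2 encode Mas-related receptors, of which the second is the mast cell receptor for cationic secretagogues. Mrgprb1 was at 1.90 to 5.57 CPM, median 3.28, in the toxin samples and at 0.658 to 2.89 CPM, median 1.72, in the 12 others, with a log2 fold change of 0.96 ± 0.30 (SE, edgeR adjusted p = 0.0318) that stayed under the fold limit. Without samples 1 and 2 of (dep)BCP+MSC it was 1.20 with adjusted p = 0.027 and passed the full rule. Mrgprb2 was at 0.522 to 2.69 CPM against 0.327 to 1.5 CPM, with a log2 fold change of 0.81 ± 0.39 and adjusted p = 0.181, and did not pass.

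The granule proteases did not move as one. Tpsab1, a tryptase, was at 2.29, 3.95, 3.85 and 3.55 CPM in (dep)BCP+MSC and at 2.86, 4.86, 3.96 and 5.98 CPM in (dep)BCP+MSC+RvE1inj. In the 12 MSC samples without toxin it was at 0.305 to 2.48 CPM, median 0.917, and sample 3 of BCP+MSC was the one among them that reached the toxin range. Tpsab1 rose by a log2 fold change of 1.92 ± 0.37 (SE, edgeR adjusted p = 0.00122), higher than the median of the 12 in 8 of 8 toxin samples (exact permutation p = 2.38e-05, 0.00214 adjusted over the 90 tests).

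The neighbouring tryptase gene Tpsb2 was at 28.9, 47.7, 42.2 and 48.2 CPM in (dep)BCP+MSC and at 38.1, 61.9, 58.3 and 76.3 CPM in (dep)BCP+MSC+RvE1inj, against 3.37 to 57.2 CPM, median 24.8, in the 12 samples without toxin. Its log2 fold change of 0.76 ± 0.41 did not pass (edgeR adjusted p = 0.231). Cpa3 (0.78 ± 0.31, adjusted p = 0.0925) and Cma1 (0.55 ± 0.33, adjusted p = 0.292) did not pass either. Mcpt4 was at 9.77, 13.5, 34.4 and 31.9 CPM in (dep)BCP+MSC and at 28.3, 42.5, 43.8 and 51.9 CPM in (dep)BCP+MSC+RvE1inj, inside the 4.19 to 68.8 CPM (median 27.9) of the other 12, with a log2 fold change of −0.15 ± 0.41 (adjusted p = 0.874). The sign of this last value was positive, 0.15, without samples 1 and 2 of (dep)BCP+MSC.

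Hdc went the other way. It was at 14.2, 26.3, 24.1 and 64.0 CPM in (dep)BCP+MSC and at 49.5, 30.3, 30.7 and 26.1 CPM in (dep)BCP+MSC+RvE1inj, against 33.4 to 105 CPM, median 71.2, in the 12 MSC samples without toxin. The ranges overlapped, and 0 of 8 toxin samples exceeded the median of the 12. Hdc fell, with a log2 fold change of −0.99 ± 0.21 (SE, edgeR adjusted p = 0.00312), just short of the fold limit. Against BCP+MSC alone, where Hdc was lowest of the groups without toxin, the (dep)BCP+MSC value was −0.47 ± 0.32 (adjusted p = 0.429). That value was 0.001 without samples 1 and 2 of (dep)BCP+MSC, and −1.06 with adjusted p = 0.0288 without the sample at 64.0 CPM, when Hdc passed the full rule. Leaving out the sample at 64.0 CPM gave −1.29 (adjusted p = 5.17e-05) over both toxin groups, again past the rule. Hdc is also transcribed in basophils and neutrophils. The 10 neutrophil markers summed to 110 to 654 CPM in the toxin samples and 269 to 1114 CPM in the 12 others, and of these 10 the mature neutrophil genes S100a8, S100a9 and Cxcr2 fell and the granule genes Camp, Ngp, Ltf and Mmp8 rose. S100a8 and S100a9 did not pass without samples 1 and 2 of (dep)BCP+MSC (adjusted p = 0.215 and 0.217). The part of neutrophil RNA in the Hdc value was not tested.

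Counted together, 3 of the 10 members (Tpsab1, Kit and Ms4a2) rose over the pooled toxin groups against the 3 MSC groups without toxin, and 0 fell by the full rule. Without samples 1 and 2 of (dep)BCP+MSC the count was also 3, with Mrgprb1 called and Kit not. By that rule 7.86% of all genes were called, 4.58% in the upward direction. The unadjusted rule also gave these 3 members, against 15.2% of all genes and 8.63% upward, and at an adjusted p under 0.05 with any fold 5 members passed (Mrgprb1 and Hdc in addition), against 13.7% of all genes. The median log2 fold change over the members was 0.79 and over all genes tested −0.03. Markers of other cells moved in the same comparison. Of 8 fibroblast genes 6 fell (Col1a1, Col1a2, Col3a1, Lum, Dpt and Pi16) and 0 rose, with a median of −1.23, and their summed level was 4105 to 15720 CPM in the toxin samples and 10610 to 38020 CPM in the 12 others. Col1a2, Dpt and Pi16 of these 6 still passed without samples 1 and 2 of (dep)BCP+MSC. The part of this shift in the members' values was not tested. In (dep)BCP+MSC against BCP+MSC, 0 members were called by the adjusted rule and 3 higher by the unadjusted one (Tpsab1 1.62 ± 0.59, Kit 1.71 ± 0.51 and Ms4a2 1.35 ± 0.51, edgeR adjusted p = 0.122, 0.0589 and 0.138), where the rules called 3.14% and 13.2% of all genes, 1.34% and 6.65% upward. There 4 of the 8 fibroblast genes fell, with a median of −1.59. DESeq2 called these 3 members in that comparison. The share of all genes that DESeq2 called is not given here, so this count is not read as a result about the members. These comparisons share the BCP+MSC and (dep)BCP+MSC samples.

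Injected resolvin E1 made no difference that could be detected at this depth and number of samples. Of the 10 members 0 were called in (dep)BCP+MSC+RvE1inj against (dep)BCP+MSC by either rule, which called 0% and 5.13% of all genes. The largest value was that of Kit, −1.03 ± 0.50 (SE, edgeR adjusted p = 0.668), and it was −0.33 without samples 1 and 2 of (dep)BCP+MSC. The other 9 members lay between −0.27 and 0.89.

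**Figure D2:**
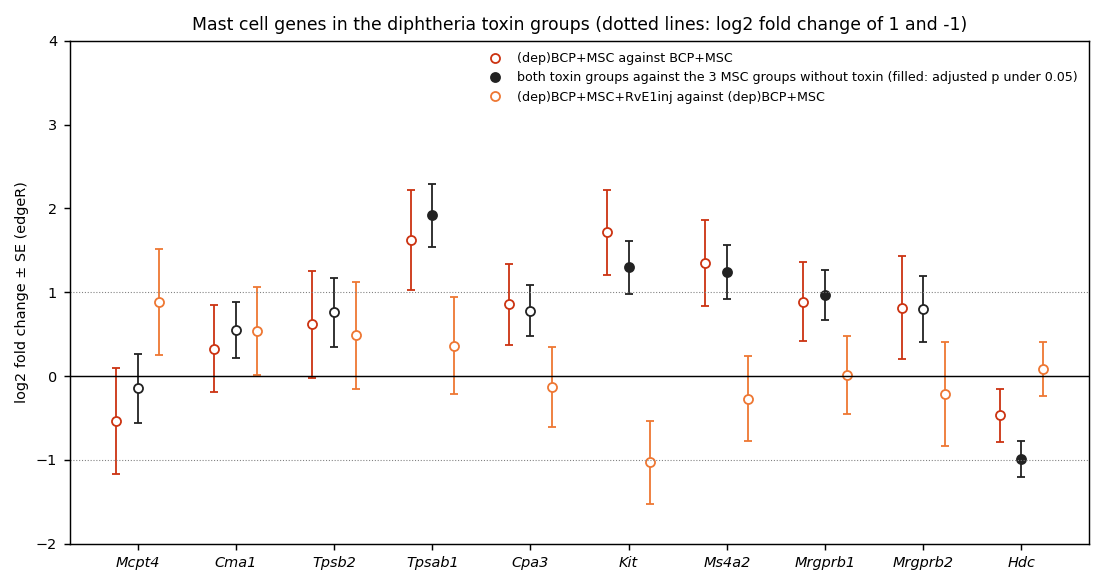
Log2 fold change with its standard error (vertical axis) of each mast cell gene in 3 comparisons of the toxin groups, from 1 edgeR fit of 24 samples. Filled points have an adjusted p under 0.05, which Tpsab1, Kit, Ms4a2, Mrgprb1 and Hdc reached against the 3 MSC groups without toxin, Hdc at −0.99.

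Count ratios within a sample show how the genes moved against each other without any scaling between samples. They were looked at after the values were seen and carry no test. The ratio of Mcpt4 to Tpsb2 reads was 0.338, 0.284, 0.815 and 0.662 in (dep)BCP+MSC and 0.744, 0.687, 0.752 and 0.680 in (dep)BCP+MSC+RvE1inj. In the 16 samples without toxin it ran from 0.853 to 1.73 with a median of 1.17, so the 2 sets did not overlap. The lowest of the 16 was sample 3 of BCP, and the 12 MSC samples among them were at 1.06 or more.

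Mcpt4 to Cma1 ran from 0.390 to 0.975, median 0.761, in the toxin samples and from 0.689 to 1.45, median 1.18, in the 16 others, with overlap. Tpsab1 to Tpsb2 was 0.0679 to 0.0911 in the toxin samples, median 0.0784, and 0.0173 to 0.122, median 0.0379, in the others. Hdc to Cpa3 was 0.483 to 2.53, median 0.773, against 1.38 to 13.1, median 3.89. Ms4a2 to Cpa3 was 0.0298 to 0.0748, median 0.0433, against 0.0134 to 0.0596, median 0.0344. Mrgprb2 to Mrgprb1 was 0.212 to 1.04, median 0.385, against 0.0714 to 0.665, median 0.433. Mcpt4 to Tpsb2 was the only ratio computed in which the sets did not overlap. By these medians Mcpt4 was lower relative to Tpsb2 and Cma1, and Tpsab1 higher relative to Tpsb2, in the toxin samples.

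**Figure D3:**
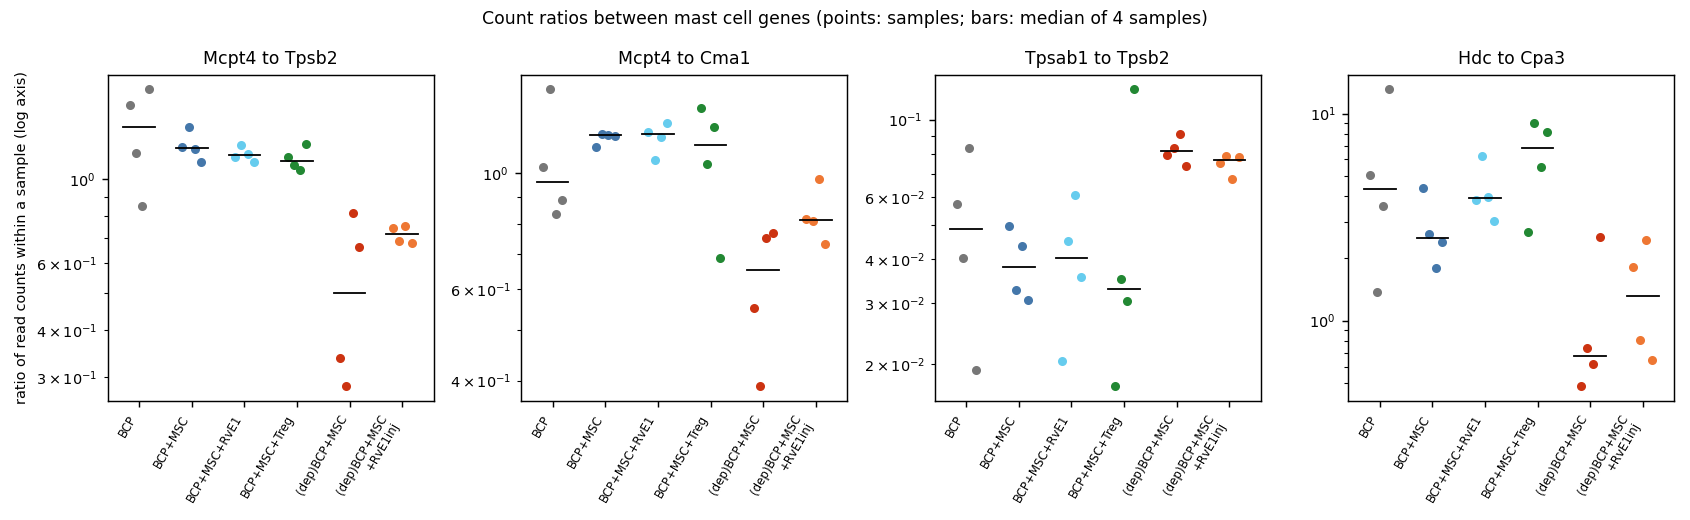
Ratio of the read counts of 2 genes in the same sample (vertical axes, logarithmic) in the 4 samples of each group, with group medians as bars. All 8 toxin samples lie at or under 0.815 for Mcpt4 to Tpsb2 and all 16 others at or above 0.853.

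Across the 24 samples the proteases and Mas-related receptors went up and down together, and Kit and Hdc did not follow. The 45 pairs of members had correlations of log2 CPM from −0.56 to 0.97 with a median of 0.61, and from −0.26 to 0.96 with a median of 0.57 once group means were subtracted. The pairs Cma1 and Tpsb2 (r = 0.97) and Mcpt4 and Cma1 (r = 0.90) were highest. The median correlation with the other 9 members was 0.28 for Kit and −0.36 for Hdc, and within groups −0.12 and 0.15, so both signs turned once group means were subtracted. These are descriptions, since the samples share groups and 2 samples with low mast cell levels widen the range.

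The 16347 genes with a mean of at least 0.5 CPM were ranked by their correlation with the mean standardized level of the 10 members. The 10 non-members with the highest r were Fgl1 (0.85), Fcer1a (0.85), Cytl1 (0.84), Mad2l2 (0.84), Slc2a8 (0.83), Lipt1 (0.83), Amigo2 (0.83), 2510046G10Rik (0.83), 1700096K18Rik (0.83) and Etfbkmt (0.82). Within groups only Fcer1a of these stayed among the first 10 non-members, at 0.84. A further r left out the 2 samples farthest from the median, sample 4 of BCP and sample 4 of BCP+MSC+Treg, with group means kept. By it Fcer1a was at 0.761, and Fgl1 (0.771), Amigo2 (0.770) and Slc2a8 (0.769) were slightly higher. Fcer1a encodes the IgE-binding alpha chain of the same receptor as Ms4a2.

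Of 15 further mast cell genes, 14 were tested, 1 rose and 0 fell by the full rule over both toxin groups, and their median log2 fold change was 0.83. A count of 1 in 14 is near the 7.86% of all genes called. The one that rose was Fcer1a. It was at 6.88, 13.9, 6.28 and 7.66 CPM in (dep)BCP+MSC and at 5.53, 9.70, 7.09 and 8.88 CPM in (dep)BCP+MSC+RvE1inj, and at 0.126 to 2.45 CPM in the 16 samples without toxin. Every toxin sample was above every other sample. The log2 fold change was 2.50 ± 0.33 (SE, edgeR adjusted p = 2.65e-05), and 2.64 ± 0.55 (adjusted p = 0.00629) in (dep)BCP+MSC against BCP+MSC, where it was also the one further mast cell gene called. Without samples 1 and 2 of (dep)BCP+MSC the first value was 2.36 (adjusted p = 0.000469), and with skin genes as a covariate 2.42 (adjusted p = 0.000168).

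Gata2, a transcription factor of mast cells and their progenitors, was at 7.17 to 20.7 CPM in the toxin samples and 4.28 to 11.1 CPM in the 12 MSC samples without toxin, a log2 fold change of 0.84 ± 0.22 (edgeR adjusted p = 0.0139) under the fold limit. Slc45a3 (0.98 ± 0.25, adjusted p = 0.0112) and Cyp11a1, a steroid-forming enzyme (0.95 ± 0.27, adjusted p = 0.022), were alike in this. Without samples 1 and 2 of (dep)BCP+MSC, Gata2 (adjusted p = 0.105) and Slc45a3 (0.099) did not pass, and Cyp11a1 did at 1.09 (0.0356). Among 14 genes of IgE receptor signalling 1 rose, again Fcer1a, and the median was −0.20, and none of the other 13, mostly kinases and adaptors that other leukocytes also use, was called, again a share near that of all genes.

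The receptor's alpha and beta chains are also made by basophils, and the basophil proteases Mcpt8 and Prss34 rose too. Mcpt8 was at 0.897, 0.337, 2.27 and 10.9 CPM in (dep)BCP+MSC and at 5.98, 5.61, 7.91 and 2.31 CPM in (dep)BCP+MSC+RvE1inj, against 0.0822 to 3.37 CPM in the 12 MSC samples without toxin, with a log2 fold change of 2.34 ± 0.64 (SE, edgeR adjusted p = 0.0178). Prss34 gave 1.52 ± 0.40 (adjusted p = 0.0125). These were 2 of the 5 basophil genes listed, beside 7.86% of all genes called. By the unadjusted rule 1 of the 5 fell, and their median log2 fold change was 0.13. The summed level of the 5, mostly Il3ra, ran from 33.4 to 170 CPM in the toxin samples and from 42.3 to 445 CPM in the 12 others. Samples 1 and 2 of (dep)BCP+MSC had 0.897 and 0.337 CPM of Mcpt8, 0.199 and 1.28 CPM of Prss34 and 6.88 and 13.9 CPM of Fcer1a. Prss34 was at 0 to 0.884 CPM in the 12 others. The part of basophil RNA in the Ms4a2 and Fcer1a values was not tested.

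**Figure D4:**
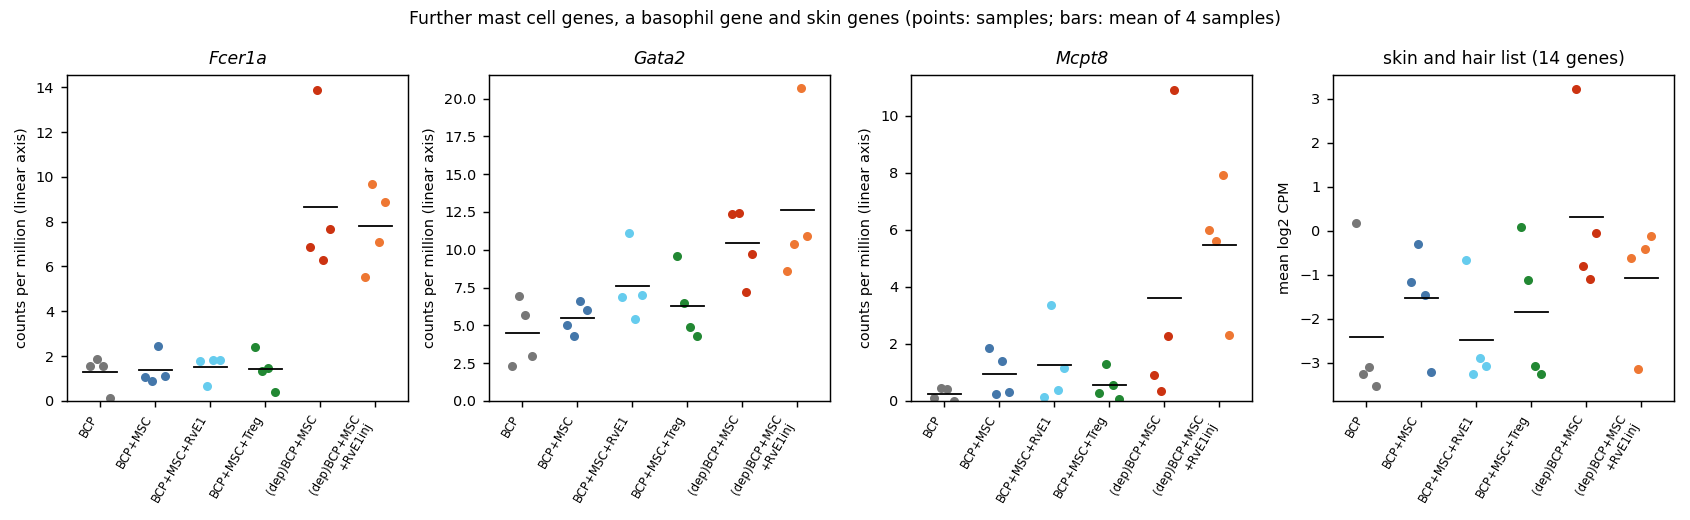
Levels of Fcer1a, Gata2 and the basophil protease gene Mcpt8 in CPM (linear axes), and the mean log2 CPM of 14 skin and hair genes, in the 4 samples of each group with group means as bars. Fcer1a separates all 8 toxin samples (5.53 or more) from the 16 others (2.45 or less). Against the 12 MSC samples without toxin, 1.25% of all genes did not overlap. Sample 1 of (dep)BCP+MSC has the highest skin level, 3.21.

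Among 10 genes of mast cell growth factors and cytokines, 9 were tested, and 1 rose and 1 fell over both toxin groups. Il3, a growth factor for mast cells and basophils, had 0 reads in 15 of the 16 samples without toxin and 1 read in the other. In the toxin samples it had 0, 0, 8 and 3 reads in (dep)BCP+MSC and 14, 18, 6 and 8 in (dep)BCP+MSC+RvE1inj, and it rose (edgeR adjusted p = 0.000621), from counts too low for a fold change. Tslp, an epithelial cytokine, was at 0.498, 0.675, 2.45 and 3.00 CPM in (dep)BCP+MSC, at 1.57 to 3.54 CPM in (dep)BCP+MSC+RvE1inj and at 1.83 to 9.25 CPM in the 12 MSC samples without toxin. Its log2 fold change was −1.06 ± 0.33 (adjusted p = 0.0317), but without samples 1 and 2 of (dep)BCP+MSC it was −0.71 with adjusted p = 0.206, so the call rests on these 2 samples. Kitl, the ligand of KIT, was at 21.3 to 33.9 CPM in the toxin samples and 16.9 to 41.1 CPM in the 12 others.

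Of 7 genes of histamine handling and its receptors, Hrh4, the histamine receptor of mast cells, eosinophils and other leukocytes, was the one called. It was at 0.0482 to 0.714 CPM in the toxin samples and 0 to 0.297 CPM in the 12 others (log2 fold change 3.08 ± 0.72, edgeR adjusted p = 0.00596). Hrh4 had 4, 2, 58 and 34 reads in (dep)BCP+MSC and 53, 39, 1 and 7 in (dep)BCP+MSC+RvE1inj. The 12 others had 0 to 20 reads, so the fold change rests on low counts. Of 8 lipid mediator enzymes 1 was called, Ptgs2, the inducible cyclooxygenase, at −1.48 ± 0.45 (adjusted p = 0.0319), and without samples 1 and 2 of (dep)BCP+MSC it was at −1.12 (adjusted p = 0.196) and did not pass. Counts of 1 in 7 and 1 in 8 genes are single genes and are read as no more, beside 7.86% of all genes. None of 8 heparin and serglycin genes was called, although Srgn, the granule proteoglycan core, passed the adjusted p at a log2 fold change of 0.81 ± 0.26 (adjusted p = 0.0414), and the full rule at 1.07 (adjusted p = 0.021) without samples 1 and 2 of (dep)BCP+MSC. In the 6 comparisons without toxin 0 genes of any of these lists were called by the adjusted rule.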

How the data were processed

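Bulk RNA was sequenced from 24 constructs. Per the labels and the study's methods the authors prepared libraries with a stranded polyadenylated RNA kit, aligned paired reads to GRCm38 with HISAT2 2.0.5 and counted them over exons with featureCounts 1.5.2, and they deposited raw counts per gene for all samples. No option for strand, overlaps or multiply mapped reads is stated, so reads of near-identical genes may be lost. From these counts, edgeR 4.0.16 (R 4.3.3, TMM, robust quasi-likelihood test) was fitted to all 24 samples without covariates for genes with at least 10 counts in all, with Benjamini-Hochberg adjustment over 30564 genes. Genes were called at an adjusted p under 0.05 and an absolute log2 fold change over 1, and a second rule used the unadjusted p. SE values are the fold change divided by the square root of F. CPM correlations used a prior count of 2. Exact permutation tests were two-sided on log2 CPM. Samples came from separate animals, and counting error is smallest for the deepest libraries.

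Members and gene lists were chosen with earlier results of these data known. All 10 members are named. Of other lists, up to 5 genes past a rule were planned to be named per list. Not every such gene is named, and more are named of the fibroblast and neutrophil lists. Genes named outside that rule (Foxp3, Il33, Kitl, Tyr, Sox10, Mcpt1, Mcpt2, Gata2, Slc45a3, Cyp11a1 and Srgn) and the count ratios were chosen after their values were seen. Alternatives were RLE scaling, other filters, DESeq2 1.42.0, the compared groups alone, a block by replicate number and leaving out each sample. Leaving out samples 1 and 2 of (dep)BCP+MSC together and a skin covariate were chosen after seeing the data. The scripts were tested on simulated data. Columns of (dep)BCP+MSC are numbered 1, 2, 4 and 5 while the labels number samples 1 to 4, so columns 4 and 5 carry a group but no replicate number. Mcpt9 and Il9 had too few counts to be tested. Annotation came from GENCODE and promoters from RefSeq, both on GRCm38.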

Additional observations from a re-analysis of the deposited data

Results flagged for a closer look

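Among 60 sets of 4 samples (10 members in 6 groups), Dixon's ratio passed its 95% critical value in 2, where about 1 in 20 sets would by chance. Both were in BCP+MSC+RvE1. Cma1 in sample 3 was 23.5 CPM, below the 36.2 to 38.9 CPM of the other 3, with a ratio of 0.854. Tpsab1 in sample 1 was 0.776 CPM, below the 1.44 to 1.5 CPM of the others, with a ratio of 0.931.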

How the results depend on the processing

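Counts of members called in the 6 comparisons without toxin and in (dep)BCP+MSC+RvE1inj against (dep)BCP+MSC were 0 under every alternative run. In (dep)BCP+MSC against BCP+MSC the count of 0 became 1 with the filterByExpr filter, 3 with DESeq2, 1 with the replicate block and 2 without the block on the same 22 samples, and ranged from 0 to 1 when each sample was left out. It became 1 without BCP+MSC sample 2 or 3 or without the (dep)BCP+MSC column 4 or 5. Over both toxin groups the count of 3 ranged from 3 to 5 when each sample was left out (5 without sample 1 of (dep)BCP+MSC+RvE1inj), and was 4 on the compared groups alone or with no filter and 2 with the skin covariate. With each sample left out, 422 to 1354 of all genes were called in (dep)BCP+MSC against BCP+MSC. Over both toxin groups the range was 1800 to 2527. Member counts under the other alternatives are not set beside the shares of all genes, so their changes are not read as results about the members.

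The replicate numbers did not pair the samples: the 50 same-numbered pairs had correlations of their deviations from −0.62 to 0.63 with a median of 0.0045, 19 of them over 0.1. With the replicate block, Ms4a2 over both toxin groups had an adjusted p of 0.051 and Mrgprb1 one of 0.297, against 0.0224 and 0.179 without the block on the same 22 samples. Mrgprb1 ranged from 0.0141 to 0.0759 when each sample was left out, Ms4a2 from 0.00703 to 0.0359 and Tpsab1 from 0.000286 to 0.00464.

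Signs turned in values that did not pass. Cma1 in (dep)BCP+MSC against BCP+MSC was −0.12 with the replicate block and −0.07 without the block on the same samples. Mcpt4 there ranged from −0.80 to 0.12 over samples left out and was 0.033 without samples 1 and 2 of (dep)BCP+MSC together, when Hdc was 0.001. Over both toxin groups Mcpt4 ranged from −0.27 to 0.083 and was 0.15 without these 2 samples. The cause was not tested. Counting error is largest for Ms4a2, Mrgprb2 and Tpsab1, with 1 or 2 reads in sample 4 of BCP or sample 4 of BCP+MSC+Treg.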
